A study of Mus musculus with 6 samples.

Results

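Protein-folding genes were followed in RNA that the labels describe as flushed femoral bone marrow, from mice 6 to 8 weeks old, 3 of them wild type (WT 1 to 3) and 3 lacking P2rx7 (knockouts A to C). Per-library values are given in that order throughout. The set was fixed by symbol, with earlier results of these data known. It holds 39 genes of the chaperone and unfolded protein response systems, out of 55291 genes in the deposited table. All 39 were found, and all 39 passed the filter on low counts, which left 15478 genes for the test. They were taken in 4 groups by role: 14 heat shock genes of the cytosol and mitochondria, 15 chaperones and folding enzymes of the endoplasmic reticulum (ER), 4 genes of the ER stress sensors and Xbp1, and 6 genes of the ATF4 branch. P2rx7 encodes an ATP-gated cation channel. The sources used here do not give the knockout allele or the strain.

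Cells answer unfolded protein through separate programmes. In the cytosol, HSF1 turns on heat shock genes such as the HSP70 and HSP90 chaperones and their HSP40 partners. In the ER, the membrane sensors ATF6, IRE1 (Ern1) and PERK (Eif2ak3) respond to unfolded protein. ATF6 and the IRE1 product XBP1 raise ER chaperones, while PERK phosphorylates eIF2α, which slows translation and favours the making of ATF4. ATF4 in turn acts on genes of amino acid supply and on stress genes such as Ddit3 and Trib3, and other eIF2α kinases feed into it as well, a convergence known as the integrated stress response. Cells that secrete much protein, among them collagen-making bone cells and plasma cells, carry high levels of ER chaperones.

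Promoters of some of these genes carry the short DNA elements by which the programmes are told apart. Matches are shown beside the division by role. RefSeq promoters (GRCm38.p6, 250 bases before to 50 after each start site) matched 33 of the 39 genes, in 38 promoters. Hspa8, Hsp90aa1, Hsp90ab1, Hsf1, Hyou1 and Atf6 had no entry. The ER stress response element, searched on both strands as CCAAT and CCACG with 9 bases of any kind between them, was found in 6 of 14 ER chaperone genes and in 0 of the 10 heat shock, 3 sensor and 6 ATF4 branch genes with a promoter. It occurs in 0.119% of all 32851 promoters of that length. The stretches below run 5′ to 3′ on the gene's strand, with the matched letters in capitals. Flanks hold up to 40 bases. They stop earlier at the edge of the window, at the start site or at the first base that the deposited table counts as exon. A match inside such an exon is shown alone.
Hsp90b1, chr10:86705510-86705694 (minus strand), with 2 matches: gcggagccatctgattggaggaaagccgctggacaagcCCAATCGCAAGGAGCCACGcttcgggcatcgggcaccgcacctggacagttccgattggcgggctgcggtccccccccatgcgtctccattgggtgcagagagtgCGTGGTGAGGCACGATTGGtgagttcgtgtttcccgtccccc
Calr, chr8:84847035-84847133 (minus strand): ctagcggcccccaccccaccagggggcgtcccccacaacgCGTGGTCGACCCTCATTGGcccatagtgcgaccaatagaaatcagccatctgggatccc
Canx, chr11:50325760-50325858 (minus strand): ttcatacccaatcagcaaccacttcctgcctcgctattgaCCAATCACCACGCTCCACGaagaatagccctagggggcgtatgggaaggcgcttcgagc
Dnajc3, chr14:118937787-118937885 (plus strand): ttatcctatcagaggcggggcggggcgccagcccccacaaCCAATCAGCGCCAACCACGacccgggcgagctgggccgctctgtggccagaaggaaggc
In Hspa5 the match is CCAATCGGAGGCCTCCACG at chr2:34772025-34772043 (plus strand), and the sixth gene is Pdia6. A variant of the element, ATTGG and CCACG with 1 base between them, was found in Herpud1 and Dnajb11 and in 0.0365% of all promoters.

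The heat shock element was searched in a form with 3 alternating units of GAA and TTC, each 2 bases apart, and in a form with 2 units (GAANNTTC). The longer form holds the letters of the shorter one in full. The 3-unit form was found in Hsph1, Hspd1 and Hspe1 and in 0.603% of all promoters. Hspd1 and Hspe1 encode the mitochondrial chaperonin HSP60 and its lid HSP10 and lie head to head on chromosome 1. They share the same element, which is read from opposite strands at chr1:55088059-55088076 and shown here for that reason.
Hspe1 (plus strand): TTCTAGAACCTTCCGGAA
Hspd1 (minus strand): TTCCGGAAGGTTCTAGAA
The 2-unit form was found in 8 of 10 heat shock genes, in 0 of 14 ER chaperone genes, in Asns, and in 7.86% of all promoters. The C/EBP-ATF response element, to which ATF4 dimers bind, was searched as TGATGNAA on both strands. It was found in Chac1, Asns and Trib3, that is 3 of 6 ATF4 branch genes, in Herpud1, and in 3.97% of all promoters. The stretch of Chac1 is shown because that gene had the largest difference among the 39 genes.
Chac1, chr2:119351009-119351096 (plus strand): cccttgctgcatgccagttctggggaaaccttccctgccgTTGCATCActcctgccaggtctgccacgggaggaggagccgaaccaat
These are matches of letters in a window and were not tested for binding.

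The libraries held 18716704 to 23575652 counts. P2rx7 was at 10.3 ± 0.232 FPKM in wild types and 6.41 ± 0.195 FPKM in knockouts (SD, n = 3; adjusted p = 0.0109, edgeR), so its transcript was reduced and not lost. The labels call the tissue bone marrow, but markers of red cells were near 0: the haemoglobin genes Hba-a1, Hba-a2, Hbb-bs and Hbb-bt had at most 5 counts in any library. The labels name no step that removes red cells or cultures the marrow, so which cells the material holds is uncertain, and the levels below are those of the material as sampled. Macrophage and collagen genes were abundant, with C1qa at 1471 to 1724 FPKM and Col1a1 at 1165 to 1620 FPKM. Traces of pituitary transcripts (Gh at 23 to 82 counts) stood in the wild types and knockout A, and traces of liver transcripts (Alb at 46 and 36 counts) in knockouts B and C. The groups below are therefore also described without knockouts B and C, by counts or by the median log2 fold change. These then rest on knockout A alone against 3 wild types. There the spread is taken from the wild types.

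By edgeR's quasi-likelihood test 0 of the 39 genes passed the threshold of 0.05 on the p adjusted over all tested genes, of which 0.103% passed. The differences were small and mostly in one direction. Of the 39 genes, 33 had lower fitted levels in the knockouts, against 48.8% of all tested genes. The median log2 fold change was -0.12, against 0.00 over all tested genes. At an unadjusted p below 0.05, 15 genes were lower and 1 higher, 16 in all, where the shares over all genes were 8.22% lower, 8.35% higher and 16.6% in all. DESeq2 called 1 of the 39 genes, Chac1, and edgeR without a filter on low counts called 2, Chac1 and Hsp90b1. Each of these fits called 3.2% of the genes it tested, and limma called 0 of the 39. In 16 genes all 3 knockouts lay below all 3 wild types and in 1 gene above them, where 10.7% of tested genes lay below and 11.1% above. The genes share mice and are regulated together, so these counts are not independent observations. The count of 16 genes at an unadjusted p below 0.05 rested on single libraries. Without WT 2 it was 4 (10.6% of all tested genes), and without knockout B it was 4 (9.22%). Without WT 1 it was 10 (14.6%) and without knockout C 8 (11.2%). It was 12 without knockout A (16.8%), 20 without WT 3 (21.9%) and 2 without knockouts B and C (4.06%). In each of these settings 32 to 35 of the 39 genes had lower fitted levels in the knockouts. WT 2 was the highest of the 6 libraries in 28 of the 39 genes. In bulk tissue, fewer cells of a type and less RNA per cell cannot be told apart.

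**Figure D1:**
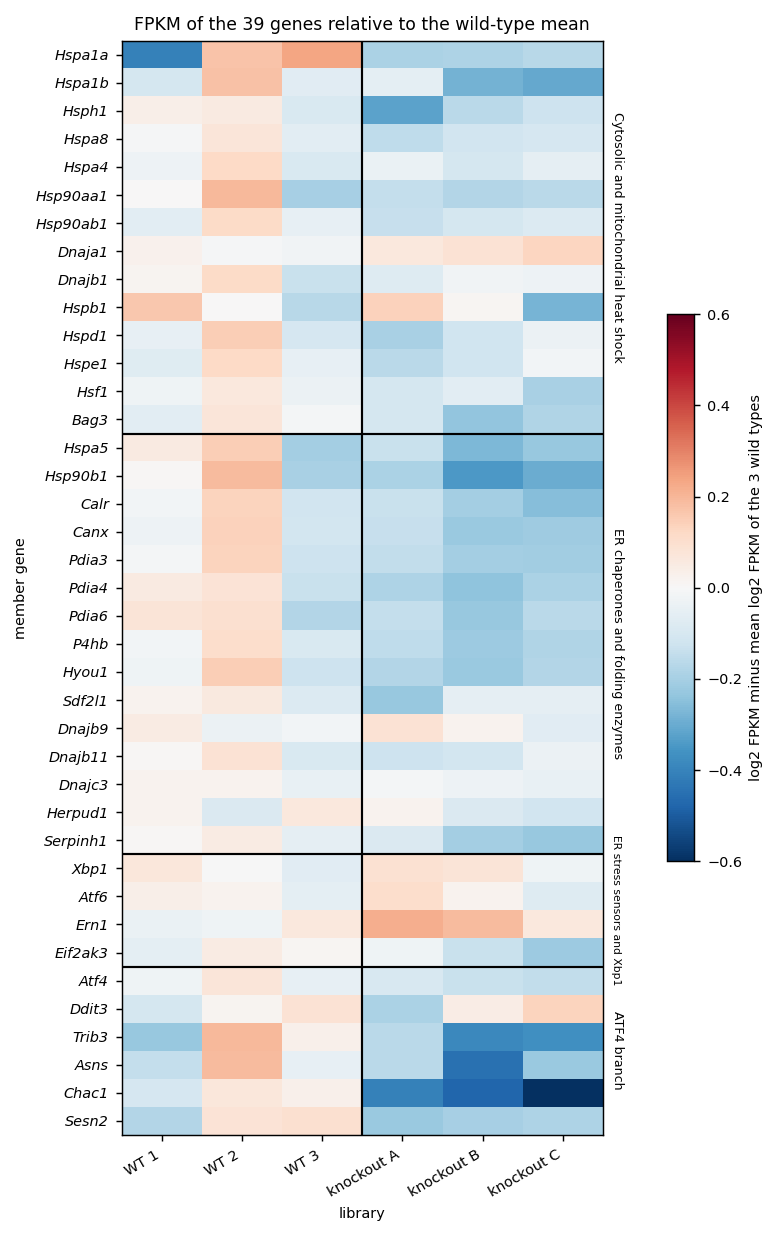
Log2 FPKM of each of the 39 genes (rows, grouped by role) in each library (columns), less the mean log2 FPKM of the 3 wild types. Blue is lower and red is higher. WT 2 is red in most rows. The knockouts are blue in most rows of the heat shock genes, the ER chaperones and the ATF4 branch. The rows of the ER stress sensors are mixed.

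The ATF4 branch held the largest differences. Of its 6 genes, 5 were lower at an unadjusted p below 0.05, against 8.22% of all tested genes. In 4 the knockouts lay entirely below the wild types, against 10.7% of all tested genes. The median log2 fold change was -0.24. The count of 5 was 1 without WT 2, where 5.02% of all tested genes were lower at that p, and 1 without knockout B (4.69%). It was 3 without knockout A (8.67%) or knockout C (5.31%). Without knockouts B and C the median log2 fold change was -0.19. Chac1, which encodes an enzyme that degrades glutathione, was at 13.9, 15.7 and 15.2 FPKM in wild types and 11.3, 10.7 and 9.74 FPKM in knockouts. The genotypes did not overlap, and the gap between them was wider than the range within either genotype. The log2 fold change of Chac1 was -0.49 ± 0.08 (SE), that is 28.8% lower, and its adjusted p by edgeR was 0.0890. It ranked 34 by p among all tested genes. Its adjusted p was 0.00240 in DESeq2 and 0.00175 in edgeR without a filter, and over all settings tried it ran from 0.00175 to 0.969, with the fold change between -0.54 and -0.42. The value of 0.969 came without knockouts B and C, where the fold change was -0.42.

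Asns makes asparagine and is a classical ATF4 target. It was at 38.3, 48.1 and 40.8 FPKM in wild types and 37.7, 30.9 and 36.2 FPKM in knockouts. The genotypes were separate, but knockout A lay close under WT 1. The log2 fold change of Asns was -0.27 ± 0.10 (SE; adjusted p = 0.234, edgeR). Trib3, a pseudokinase that feeds back on ATF4, was at 14.7, 19.7 and 17.6 FPKM in wild types and 15.4, 13.1 and 13.3 FPKM in knockouts. Here the genotypes overlapped, since knockout A was above WT 1. The log2 fold change of Trib3 was -0.31 ± 0.11 (SE; adjusted p = 0.232). Sesn2, a sestrin that restrains mTORC1 when amino acids are short, was at 24.5, 29.3 and 29.5 FPKM in wild types and 23.7, 24.1 and 24.3 FPKM in knockouts. The knockouts of Sesn2 were nearly equal and WT 1 lay just above them, and its log2 fold change was -0.20 ± 0.07 (SE; adjusted p = 0.235).

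The transcript of Atf4 itself had a smaller fold change than those 4 genes, a difference that was not tested. It was at 107, 115 and 106 FPKM in wild types and 102, 99.9 and 98.7 FPKM in knockouts, without overlap. The log2 fold change of Atf4 was -0.12 ± 0.05 (SE; adjusted p = 0.272, edgeR). ATF4 is controlled largely in translation, so its transcript level does not show the amount of protein. Ddit3, which encodes the pro-apoptotic factor CHOP, did not share the pattern. It was at 17.2, 18.8 and 19.7 FPKM in wild types and 16.3, 19.1 and 20.3 FPKM in knockouts, which spanned the wild types on both sides. Its log2 fold change was 0.01 ± 0.09 (SE), with a 95% interval of -0.21 to 0.22. Ddit3 shares 68 exon bases with Mars1 on the other strand, a gene with up to 1595 counts in a library. The sources used here do not say whether counting used strand, and reads in shared exons cannot be told apart without it.

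**Figure D2:**
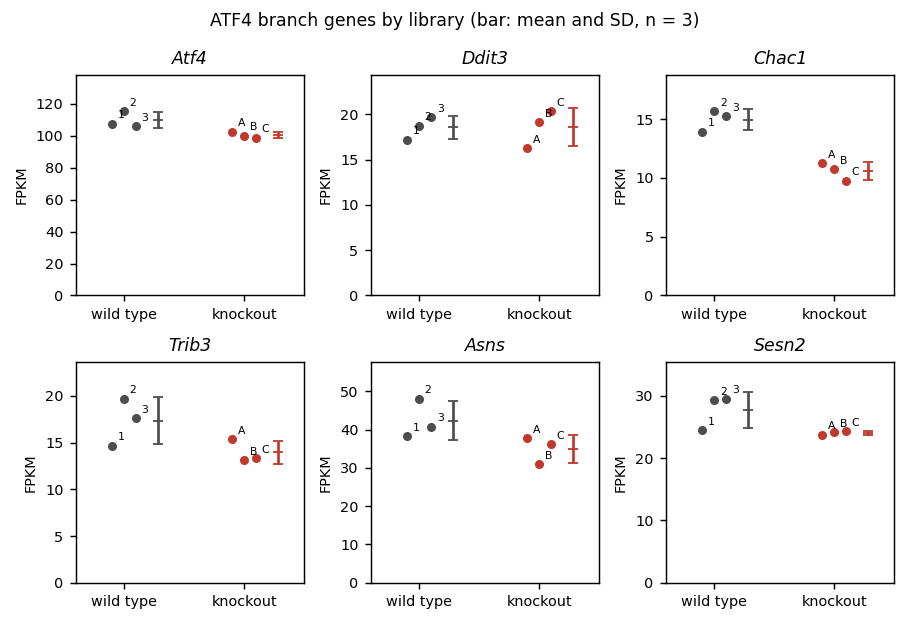
FPKM of the 6 ATF4 branch genes in each library, with wild types 1 to 3 in grey and knockouts A to C in red, and the mean and SD (n = 3) as a bar beside them. All y axes start at 0. Chac1 shows the widest gap, and Ddit3 shows none.

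Other genes that ATF4 is known to act on, together with the eIF2α kinases, formed a list of 31 tested genes of 32 listed. Of the 31 genes, 14 were lower and 0 higher at an unadjusted p below 0.05, where the shares over all genes were 8.22% and 8.35%. The median log2 fold change was -0.15. In 14 the knockouts lay entirely below the wild types, against 10.7% of all tested genes. By edgeR 0 of the 31 passed the threshold. DESeq2 called 7 of the 31 and edgeR without a filter called 10, all lower, where each fit called 3.2% of all genes. Limma called 0. Psat1, an enzyme of serine synthesis, had the smallest p. It was at 25.8, 31.4 and 23.4 FPKM in wild types and 20.4, 16.9 and 19.2 FPKM in knockouts, without overlap, and its log2 fold change was -0.51 ± 0.11 (SE; adjusted p = 0.143 by edgeR). Gars, the glycyl-tRNA synthetase, was next, at 67.7, 77.9 and 63.3 FPKM against 57.7, 54.2 and 54.4 FPKM (log2 fold change -0.32 ± 0.07 SE; adjusted p = 0.156). In both genes WT 2 was highest and all knockouts lay below all wild types. The count at an unadjusted p below 0.05 was 13 to 16 when any single library was left out. In those settings 4.69% to 10.6% of all tested genes were lower at that p. Without knockouts B and C the median was -0.11 and 24 of 31 genes were lower.

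Among the 15 ER chaperones and folding enzymes, 14 had lower fitted levels in the knockouts and 8 had an unadjusted p below 0.05, while 0 passed the threshold by edgeR, DESeq2 or limma and 1 without a filter. The median log2 fold change was -0.18. Over all tested genes 16.6% had an unadjusted p that low. Hspa5 encodes BiP, the HSP70 of the ER and the partner that holds the sensors inactive. It was at 234, 250 and 196 FPKM in wild types and 206, 187 and 193 FPKM in knockouts. WT 3 lay among the knockouts, and the log2 fold change of Hspa5 was -0.21 ± 0.09 (SE; adjusted p = 0.303, edgeR).

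Hsp90b1, the HSP90 of the ER (GRP94), was at 185, 210 and 161 FPKM in wild types and 162, 145 and 150 FPKM in knockouts. It had the largest log2 fold change of the group, -0.28 ± 0.09 (SE; adjusted p = 0.224, edgeR, and 0.0460 without a filter). WT 3 again lay among the knockouts, just below knockout A. Pdia4, a disulphide isomerase, had the smallest p of the group. It was at 104, 106 and 90.9 FPKM in wild types and 87.7, 84.4 and 87.6 FPKM in knockouts, without overlap (log2 fold change -0.20 ± 0.06 SE; adjusted p = 0.204). Calreticulin (Calr), a lectin chaperone that also stores calcium, was at 512, 569 and 478 FPKM against 472, 450 and 434 FPKM. The genotypes did not overlap for Calr, with knockout A close under WT 3, and its log2 fold change was -0.19 ± 0.08 (SE).

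The remaining folding enzymes had values in the same range. Log2 fold changes were -0.19 for calnexin (Canx), the membrane-bound lectin chaperone, and -0.18 for Pdia3, the isomerase that works with both lectins. They were -0.17 for the isomerase Pdia6, -0.18 for P4hb, an isomerase that is also a subunit of collagen prolyl hydroxylase, and -0.19 for Hyou1, a large HSP70 that exchanges nucleotide on BiP. Of these 5, Pdia6 alone had genotypes that overlapped. For each of them WT 2 was the highest library.

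Dnajb9, an HSP40 partner of BiP, was at 18.4, 17.4 and 17.6 FPKM in wild types and 18.9, 18.1 and 16.97 FPKM in knockouts. The knockouts spanned the wild types, and the 95% interval of its log2 fold change was -0.11 to 0.16. Dnajc3, an inhibitor of PERK that also serves as a BiP partner, had a log2 fold change of -0.02 (95% interval -0.12 to 0.08). Herpud1, a membrane protein of ER-associated degradation, had -0.05, Dnajb11 had -0.08 and Sdf2l1, which binds BiP with HSP40 proteins, had -0.10. None of these 5 had an unadjusted p below 0.05. Dnajc3, with the ER stress response element shown above, thus had a fold change nearer 0 than Hsp90b1, Calr and Canx, which hold it as well. The difference between these genes was not tested.

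Serpinh1 encodes HSP47, the collagen chaperone, and was the most abundant of the 39 genes per exon length. It was at 613, 631 and 588 FPKM in wild types and 575, 529 and 522 FPKM in knockouts, without overlap (log2 fold change -0.17 ± 0.06 SE; adjusted p = 0.263, edgeR). Its client Col1a1 was at 1289, 1620 and 1559 FPKM against 1270, 1165 and 1272 FPKM, so it too had all knockouts below all wild types. It was the 1 gene of its marker list with that order. Of the 10 tested markers of collagen-making stromal and bone cells, 7 had higher and 3 lower fitted levels in the knockouts. All knockouts lay above all wild types in 4 of them, Alpl, Sp7, Cxcl12 and Lepr, with log2 fold changes of 0.75, 0.55, 0.92 and 1.49. These 4 and no others of the list were higher at an unadjusted p below 0.05, and 0 passed the threshold by edgeR, 0 by limma and 1 by DESeq2. The summed level of 12 marker genes of collagen-making cells overlapped, at 24800 to 29400 CPM (counts scaled to the library total) in wild types and 26600 to 29200 CPM in knockouts. Plasma cell markers (11 of 12 found) summed to 171 to 234 CPM in wild types and 340 to 413 in knockouts. Of the 8 tested, 3 passed the threshold by edgeR, and all 3 rose: the antibody genes Igha and Igkc and the joining chain Jchain, with log2 fold changes of 3.51, 3.40 and 3.75. Sdc1, which had 3014 to 4205 counts and made up most of the wild-type sum, had a log2 fold change of 0.09. Prdm1 and Derl3 were at -0.15 and -0.10, and Mzb1, a defining plasma cell gene, had at most 1 count in a library. Macrophage markers summed to 8240 to 8520 CPM in wild types and 8440 to 9460 in knockouts, a sum made up mostly of abundant genes such as C1qa. Of the 10, 2 passed the threshold, and both fell: Vsig4 fell by 1.98 and Cd163 by 0.74 on the log2 scale (adjusted p = 0.0142 and 0.0486, edgeR). The 3 plasma cell and 2 macrophage calls both became 0 without knockout B and without knockout C. In each of these settings 0 of all tested genes passed the threshold by edgeR. The part of these cells in the chaperone values was not tested.

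**Figure D3:**
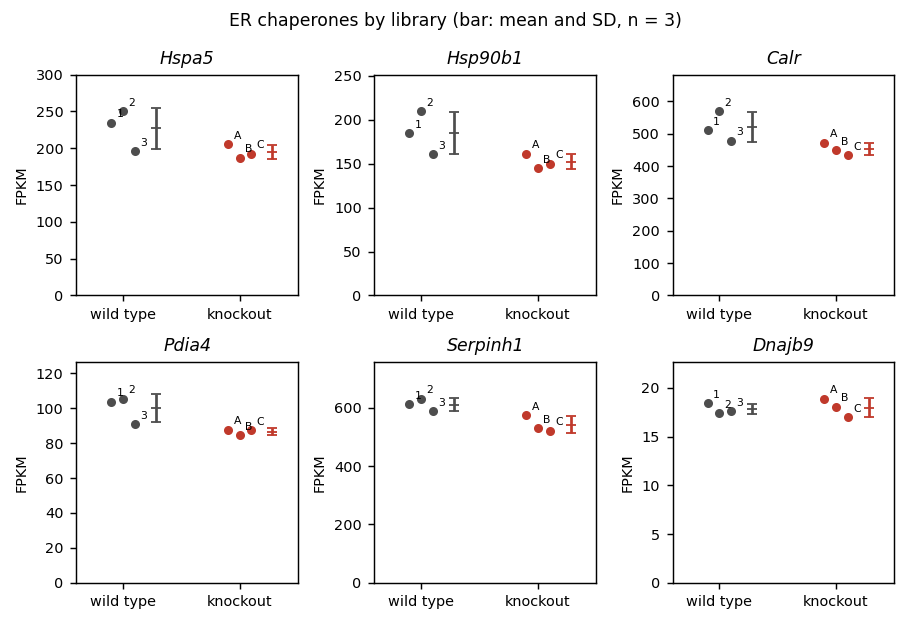
FPKM of 6 ER chaperones in each library, with wild types 1 to 3 in grey and knockouts A to C in red, and the mean and SD (n = 3) as a bar. All y axes start at 0. WT 3 lies near the knockouts for Hspa5 and Hsp90b1, all knockouts lie below the wild types for Calr, Pdia4 and Serpinh1, and Dnajb9 overlaps.

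Single libraries decided how many ER chaperones reached an unadjusted p below 0.05. The number was 8 with all libraries (16.6% of all tested genes), 2 without WT 2 (10.6%), 1 without knockout B (9.22%) and 2 without knockout C (11.2%). As shares of the 15 genes, 1 is 6.67% and 2 are 13.3%. The number was 6 without knockout A (16.8%), 5 without WT 1 (14.6%) and 11 without WT 3 (21.9%). Without knockouts B and C it was 0, and the median log2 fold change was -0.15. The direction was lower in 13 to 15 of the 15 genes under all these settings. A list of 45 other genes of ER folding, quality control and degradation had its median at -0.05, with 7 lower and 1 higher at an unadjusted p below 0.05. These 8 of 45 are near the share over all tested genes, 16.6%. By edgeR 0 passed the threshold, by limma 0 and by DESeq2 1, which called 3.2% of all genes. The count of 8 was 14 without WT 3, where the share over all genes was 21.9%. It was 4 without WT 1 (14.6%) or knockout B (9.22%) and 3 without WT 2 (10.6%) or knockout C (11.2%). Without knockouts B and C the median of this list was -0.04. Its smallest p-values were those of Creb3l1, an ER-bound transcription factor of collagen-secreting cells (log2 fold change -0.40 ± 0.08 SE; adjusted p = 0.133, edgeR), and the prolyl isomerase Fkbp2 (-0.17 ± 0.05 SE; adjusted p = 0.196).

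Of the 4 genes of the ER sensors and Xbp1, 1 had a lower and 3 a higher fitted level in the knockouts, with a median log2 fold change of 0.04 (0.09 without knockouts B and C). At an unadjusted p below 0.05, 1 was higher with all libraries (8.35% of all tested genes), without WT 3 (11.2%) or without knockout C (5.86%). Without WT 1, without WT 2 or without knockout B the number was 0. Without knockout A, 0 were higher and 1 was lower, Eif2ak3 at -0.16, where 8.67% of all tested genes were lower. Ern1, which encodes the kinase and endonuclease IRE1, was the only one of the 39 genes that was higher at an unadjusted p below 0.05. It was at 5.13, 5.19 and 5.52 FPKM in wild types and 6.13, 6.02 and 5.51 FPKM in knockouts. Knockout C was level with WT 3, so the genotypes overlapped, and the log2 fold change was 0.16 ± 0.06 (SE; adjusted p = 0.240, edgeR). Xbp1, whose transcript IRE1 splices, was at 62.9, 59.8 and 57.3 FPKM in wild types and 63.8, 63.2 and 58.9 FPKM in knockouts, with overlap (log2 fold change 0.05 ± 0.06 SE). Counts per gene do not separate spliced from unspliced Xbp1, so the activity of IRE1 is not measured here. Atf6 had a log2 fold change of 0.03 (95% interval -0.10 to 0.16). Eif2ak3, which encodes PERK, was at 6.18, 6.68 and 6.49 FPKM against 6.32, 5.88 and 5.54 FPKM. Knockout A lay among the wild types of Eif2ak3, and its log2 fold change was -0.12 ± 0.06 (SE; adjusted p = 0.386).

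**Figure D4:**
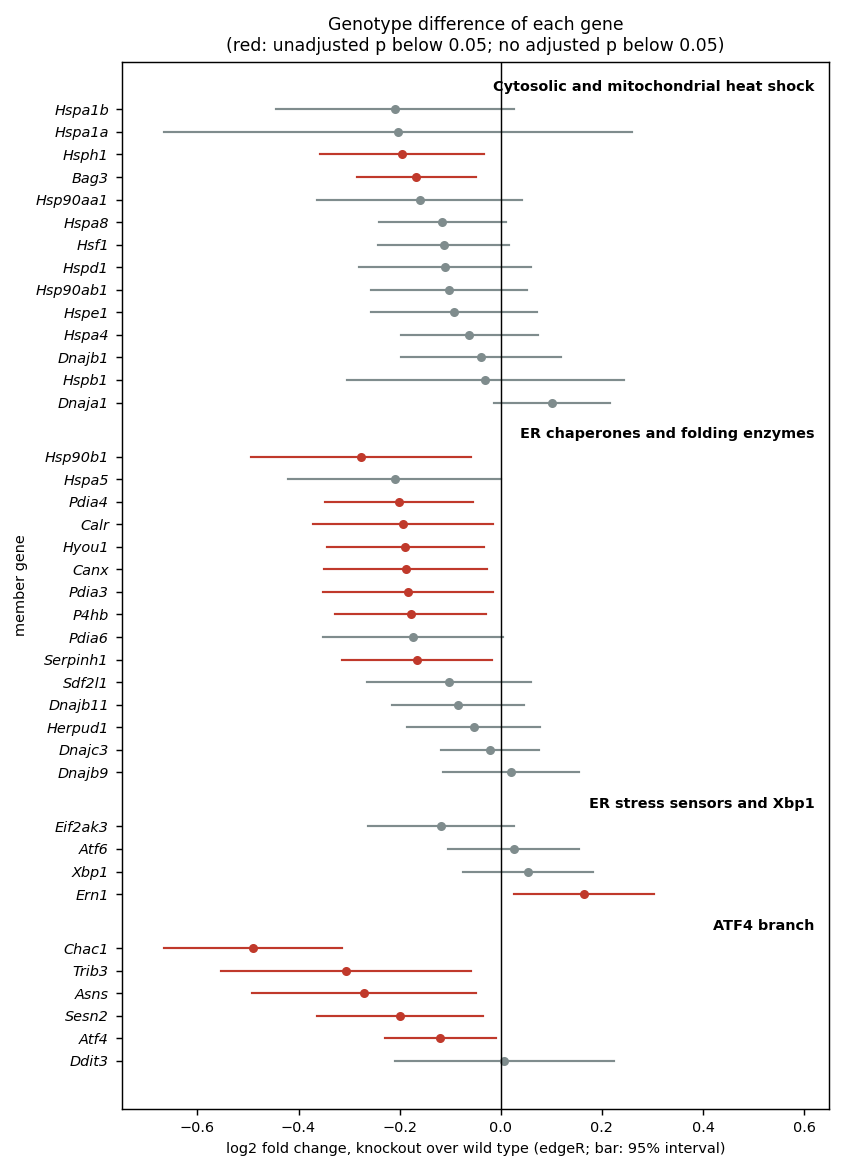
Log2 fold change of knockout over wild type (edgeR) of each of the 39 genes with its 95% interval, grouped by role. Red marks an unadjusted p below 0.05, which 15 genes reach on the lower side and Ern1 on the higher side. No gene has an adjusted p below 0.05.

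Heat shock genes of the cytosol and mitochondria came next. Of the 14, 13 had lower fitted levels in the knockouts, 2 had an unadjusted p below 0.05, and 0 passed the threshold by edgeR, DESeq2 or limma. These 2 of 14 are a share of 14.3%, no more than the 16.6% over all tested genes. The count of 2 was 4 without WT 3, where the share over all genes was 21.9%. It was 1 without WT 1 (14.6%) or WT 2 (10.6%). The median log2 fold change was -0.11, and -0.13 without knockouts B and C. Bag3 encodes a partner of HSP70 in selective autophagy and had the smallest p of the group. It was at 47.6, 52.3 and 49.2 FPKM in wild types and 46.2, 42.1 and 43.8 FPKM in knockouts, without overlap (log2 fold change -0.17 ± 0.05 SE; adjusted p = 0.196, edgeR). Hsph1, the HSP110 that exchanges nucleotide on HSP70, was at 9.29, 9.41 and 8.50 FPKM against 7.25, 8.09 and 8.30 FPKM. Its knockouts also lay below its wild types, with knockout C close under WT 3 (log2 fold change -0.20 ± 0.07 SE; adjusted p = 0.237).

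Hsp90ab1, the constitutive cytosolic HSP90, was the most abundant of the group, at 416, 471 and 420 FPKM in wild types and 396, 404 and 411 FPKM in knockouts. The genotypes were separate by a narrow gap, and the log2 fold change was -0.10 ± 0.07 (SE; adjusted p = 0.479, edgeR). Hspa8, the constitutive HSP70, was at 107, 113 and 103 FPKM against 96.8, 99.5 and 100.4 FPKM, also without overlap (log2 fold change -0.12 ± 0.05 SE; adjusted p = 0.333). The inducible Hsp90aa1 was at 32.8, 37.5 and 28.6 FPKM against 29.7, 29.0 and 29.3 FPKM, so that WT 3 was the lowest of all libraries (log2 fold change -0.16 ± 0.09 SE). Hsf1, the transcription factor of the programme, had a log2 fold change of -0.11 ± 0.06 (SE), with knockouts below wild types.

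The inducible HSP70 genes Hspa1a and Hspa1b are near-identical neighbours on chromosome 17, and their reads can be split between the copies. In GENCODE M21 transcripts, 58.8% of the 50-base words of Hspa1a also occur in Hspa1b. Hspa1b had 294, 411 and 347 counts in wild types and 335, 246 and 255 in knockouts, while Hspa1a had 39 to 70 in all libraries. Summed into 1 gene they had 333, 478 and 417 counts against 385, 289 and 301. Knockout A lay among the wild types, and the log2 fold change of the sum was -0.21 ± 0.10 (SE; adjusted p = 0.331, edgeR). Neither row alone had an unadjusted p below 0.05.

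Dnaja1, an HSP40 partner of HSP70, was the only gene whose 3 knockouts lay above its 3 wild types. It was at 5.52, 5.39 and 5.34 FPKM in wild types and 5.66, 5.76 and 5.92 FPKM in knockouts, and its log2 fold change was 0.10 ± 0.05 (SE; adjusted p = 0.353, edgeR). Dnaja1 shares 608 of its 8629 exon bases with Smu1 on the other strand, whose counts reached 1559, while those of Dnaja1 were 944 or more. Its value is therefore less certain. The other HSP40 of the group, Dnajb1, had a log2 fold change of -0.04 (95% interval -0.20 to 0.12), and Hspa4, an HSP110-type chaperone, had -0.06 (-0.20 to 0.07). Hspb1, the small heat shock protein HSP27, spanned the same range in both genotypes, with 41.3, 36.9 and 32.9 FPKM in wild types and 40.6, 37.2 and 30.4 FPKM in knockouts.

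The chaperonin pair with the shared element had like values. Hspd1 was at 29.3, 33.6 and 28.3 FPKM in wild types and 26.5, 27.9 and 29.6 FPKM in knockouts. Hspe1 was at 20.9, 23.9 and 21.2 FPKM against 19.7, 20.3 and 21.7 FPKM. In both genes WT 2 was the highest library, knockout A the lowest, and knockout C lay among the wild types. Their log2 fold changes were -0.11 ± 0.07 and -0.09 ± 0.07 (SE; adjusted p = 0.488 and 0.552, edgeR). The pair shares 112 exon bases on opposite strands, and Hspd1 has a pseudogene, Hspd1-ps3, with 196 to 285 counts. Reads of shared sequence cannot be told apart here.

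A list of 40 other tested genes of cytosolic folding had its median at -0.03 on the log2 scale, with 22 of the 40 lower. At an unadjusted p below 0.05, 3 were lower and 0 higher, a share of 7.5% against 16.6% over all tested genes. The count was 13 when WT 3 was left out (21.9% over all genes), 7 without knockout A (16.8%) and 1 when knockout C was left out (11.2%). Without knockouts B and C the median was -0.05. By edgeR 0 passed the threshold, by DESeq2 1, by limma 0. The smallest p-values were those of the small heat shock protein Hspb6 (log2 fold change -0.41 ± 0.09 SE; adjusted p = 0.152, edgeR) and the HSP70 partner Bag2 (-0.41 ± 0.16 SE; adjusted p = 0.257). A list of 14 genes of mitochondrial folding and proteolysis had a median of -0.01, with 1 gene lower (Atf5, -0.14 ± 0.06 SE) and 1 higher (Hscb, 0.24 ± 0.09 SE) at an unadjusted p below 0.05 and 0 past the threshold by edgeR, DESeq2 or limma. These 2 became 0 without WT 2 (10.6% of all tested genes), without knockout B (9.22%) and without knockout C (11.2%). The median of the 14 was -0.05 without knockouts B and C. Immediate early genes were listed as a check on handling of the tissue. They summed to 1310 to 1510 CPM in wild types and 1270 to 1300 in knockouts, with WT 1 highest and all knockouts below all wild types. Of the 10, 9 had lower fitted levels in the knockouts and 0 passed the threshold. The median log2 fold change of the 10 was -0.12, beside -0.11 for the heat shock genes. The part of the immediate early genes in the heat shock values was not tested.

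Set side by side as mean log2 CPM of each group less the wild-type mean, the 3 knockouts lay below the 3 wild types in 3 of the 4 groups. The ATF4 branch was at -0.12, 0.10 and 0.02 in wild types and -0.21, -0.25 and -0.22 in knockouts. The ER chaperones were at 0.03, 0.08 and -0.10 against -0.12, -0.16 and -0.15, so WT 3 lay close to knockout A. The heat shock genes were at -0.03, 0.09 and -0.06 against -0.11, -0.10 and -0.10. The spread among wild types was wider than that among knockouts in these 3 groups. The sensors with Xbp1 overlapped, at 0.01, 0.00 and -0.01 against 0.09, 0.05 and -0.05. These means describe genes that share libraries, and the differences between the groups were not tested.

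**Figure D5:**
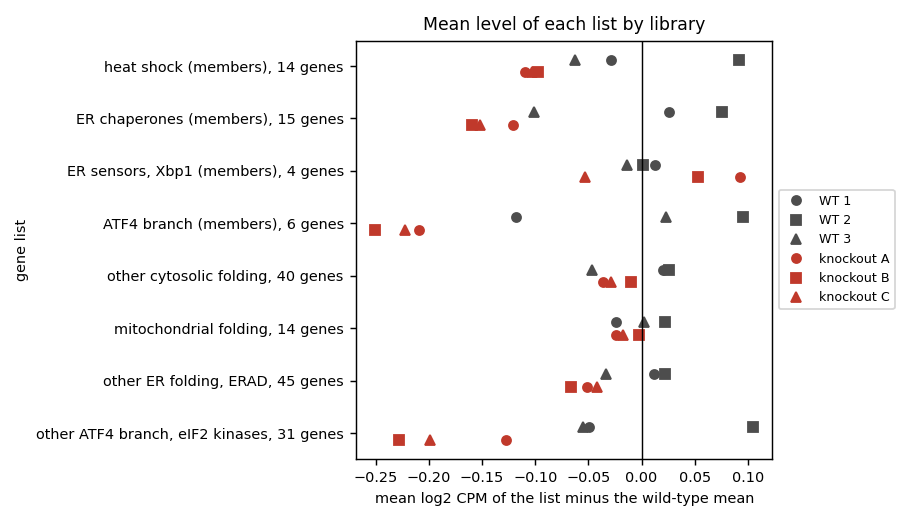
Mean log2 CPM of each gene list in each library, less the mean of the 3 wild types, with wild types in grey and knockouts in red. Knockouts lie to the left of the wild types for the ATF4 branch, the ER chaperones and the heat shock genes and for the lists of other ATF4 branch and other ER genes. The ER sensors, other cytosolic folding and mitochondrial folding lists overlap.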

How the data were processed

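RNA-seq libraries of flushed femoral marrow were made with a SMARTer mRNA kit from 3 wild-type and 3 knockout mice, per the labels' protocols. The authors deposited raw counts per gene symbol and FPKM values in 1 table. The builds GRCm38 and mm10 come from the submitters' processing notes. The sources used here do not give the aligner, counter, annotation or use of strand.

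Counts were tested with edgeR 4.0.16 in R 4.3.3 (filterByExpr, TMM, glmQLFit, glmQLFTest, two-sided), with Benjamini-Hochberg adjustment over all 15478 tested genes and a threshold of 0.05. Standard errors and 95% intervals are those implied by the test. P2rx7 was also tested by an exact two-sided permutation test (p = 0.1, the smallest that 3 against 3 allows). FPKM values are printed as deposited. List means use log2 CPM with a prior count of 2. Marker sums are CPM over the library total. Alternatives used limma 3.58.1 (voom, and log2 FPKM with pseudocounts of 1 and 0.1), DESeq2 1.42.0, other scalings and filters, and left-out libraries.

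The genes and lists were chosen with earlier results of these data known. All 39 genes could be named. From each list of other pathway genes, up to 4 past the threshold were to be named, or else the 2 of smallest p. No samples are paired, since numbers name the wild types and letters the knockouts. Lists of neutrophil, erythroid, macrophage and pituitary or liver genes served as checks: neutrophil genes summed to 148 to 498 CPM in wild types and 117 to 680 in knockouts and erythroid genes to 2.60 to 3.86 and 3.62 to 6.15. The neutrophil sum pools genes of both directions. Of the 11 tested, 7 had lower and 4 higher fitted levels in the knockouts, with log2 fold changes from -1.44 to 1.73. By edgeR 0 of the 11 passed the threshold.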

Additional observations from a re-analysis of the deposited data

How the results depend on the processing

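The 39 genes under 16 alternatives gave 624 values, of which 604 kept their direction and side of the threshold. The exceptions past the threshold were Chac1 in DESeq2 and Chac1 and Hsp90b1 without a filter on low counts, so that the number of the 39 genes past the threshold was 1 and 2 instead of 0. It was 0 under each of the other alternatives. Log2 fold changes near 0 changed sign in 6 genes. For Ddit3 they were -0.0012 without a filter, -0.0034 in limma-voom, -0.0029 and -0.0033 by limma on log2(FPKM + 1) and log2(FPKM + 0.1), -0.1982 without knockouts B and C, and -0.0645 to 0.1010 with single libraries left out. For Hspb1 they were 0.125 without knockouts B and C and -0.1188 to 0.0771 with single libraries left out. Herpud1 was at 0.0111 without knockouts B and C. With single libraries left out, Dnajb1 ran from -0.1049 to 0.0157, Dnajb9 from -0.0101 to 0.0591 and Atf6 from -0.0146 to 0.0694. The cause was not tested.

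The number of the 39 genes with an unadjusted p below 0.05 was 4 to 20 with single libraries left out and 2 without knockouts B and C. Over all alternatives the median log2 fold change ran from -0.1324 to -0.0552 for the heat shock genes, -0.243 to -0.12 for the ER chaperones, 0.0092 to 0.0909 for the ER sensors and -0.3116 to -0.17 for the ATF4 branch. Over all genes, the number past the threshold was 16. It was 970 without a filter, 496 in DESeq2, 6 in limma-voom, 10 and 2 by limma on log2(FPKM + 1) and log2(FPKM + 0.1), 0 without knockouts B and C, and 0 to 172 with single libraries left out. P2rx7 had a log2 fold change of -0.64 (adjusted p = 0.516, edgeR) without knockouts B and C and -0.6895 to -0.6537 with single libraries left out (adjusted p = 0.0763 without knockout B and 0.0973 without knockout C). Depth limits Hspa1a most, which had 39 to 70 counts and the largest SE of the 39 genes, 0.20.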
